A study of Betula luminifera with 2 samples.

Results

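The nutrient-linked microRNAs (miRNAs) of Betula luminifera, a birch, were taken as every miRBase-matched entry of the families miR169, miR395, miR399, miR827 and miR2111, together with every degradome alignment of such a miRNA. This gave 17 of the 569 entries of the small RNA table, which held 15 of its 505 distinct mature sequences, and 1 of the 108 degradome alignments. Both libraries, 1 of small RNA and 1 of degradome fragments (the 5′ ends of cut polyadenylated RNAs), came from seedlings of clone G49# kept in tissue culture for 2 months, with root, stem and leaf RNA mixed. No seedlings under another nutrient supply were part of the design, and the labels do not state the composition of the culture medium. With a single library of each kind there was no test between samples, and intervals at 95% cover counting error alone. PCR copies of a molecule could not be recognised, so the intervals may be too narrow even for counting error. The small RNA table listed 607592 reads in all.

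Each of these families is known as part of a nutrient response in other plants. In Arabidopsis, miR169 acts on NF-YA transcription factors and is linked to nitrogen supply, while miR395 acts on ATP sulfurylases and a sulphate transporter and rises when sulphate is short. miR399 and miR827 rise when phosphate is short, where miR399 acts on PHO2, a ubiquitin-conjugating enzyme that limits phosphate uptake, and miR827 acts on NLA, a ubiquitin ligase. miR2111 also rises under low phosphate in Arabidopsis, and in the legume Lotus it moves from shoot to root and acts on the F-box gene TML, which controls nodule number.

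The leading sequences of each family are printed here so that their 5′ ends can be compared, with the rarer 3p sequences of miR395 that the degradome section turns on. They are the letters of the deposited table (T stands for U), read 5′ to 3′, and the capitals mark the seed, bases 2 to 8.
miR169, osa-MIR169o-p5: tAGCCAAGaatgacctgcct
miR169, cme-miR169r: tGAGCCAAgaatgacttgccgac
miR395, mtr-miR395a: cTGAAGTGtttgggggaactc
miR395, vvi-MIR395m-p5: gTTCCCTTgaacacttcact
miR395, gma-miR395d: tGAAGTGTttgggggaactt
miR395, aly-miR395c-3p: cTGAAGTGtttgggggaactt
miR399, ptc-miR399e: cGCCAAAGgagagttgccctt
miR399, vvi-miR399a: tGCCAAAGgagaattgccctg
miR827, bdi-miR827-3p: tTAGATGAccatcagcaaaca
miR2111, aly-miR2111a-5p: tAATCTGCatcctgaggttta
The names are those of the most similar registry miRNA and its species, not of a birch gene.

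Apart from miR169, the nutrient families lay below most other conserved families in these seedlings, though as a group not below the matched families as a whole. miR169 stood at place 14 of the 30 conserved families. Together the 5 nutrient families held 340 reads, 0.0560% of the listed reads (exact interval 0.0502 to 0.0622%). The 25 other conserved plant families held 563064 reads, or 42863.9 in 24 of them without miR166, the most abundant family. The median nutrient family had 53 reads, and the median of the other conserved families was 373 reads. Over all 84 matched families the median was 9 reads and 43 had fewer than 10, so that 4 of the 5 nutrient families stood in the upper part of that list. A low read count in mixed tissue can come, among other sources, from few cells or from little RNA per cell, and these cannot be told apart. How well each sequence was recovered in the library was not measured, so the order of families is one of reads. The 3 copper families miR397, miR398 and miR408, which are also tied to a mineral nutrient, had 3990 reads, and the lowest of them, miR397, had 846.

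miR169, the nitrogen-linked family, was the most abundant member. It had 182 reads (exact Poisson interval 156.5 to 210.4) and stood at place 19 of the 84 matched families by total reads. By the most abundant sequence of each family its place was 26. In total reads the family next above miR169 was miR1511 with 359.7 reads (323.8 to 399.2), whose interval does not meet that of miR169. The next below was miR394, which acts on an F-box gene of leaf growth, with 170 reads (145 to 198), an overlapping interval.

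The phosphate and sulphate families followed. miR399 had 87 reads (69.7 to 107) and place 28, between miR1425 with 97 reads and miR2950 with 86, neither of which it could be told from by counting error. miR395 had 53 reads (39.7 to 69.3) and place 31, between miR393 with 77 reads (60.8 to 96.2) and miR479 with 50, and both of those intervals overlap its own. Those of miR399 and miR395 come close without meeting.

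miR2111 had 17 reads (9.90 to 27.2), as many as miR5077, and its neighbours miR1862 and miR6300 had 19 and 15. miR827 was listed with 1 read (0.0253 to 5.57), the lowest count in the table, which it shared with 25 other families. Of the 84 matched families, 31% had no more than 1 read. In the order miR169, miR399, miR395, miR2111, miR827, no interval met that of its neighbour. The separation of miR399 and miR395 was lost when only the largest entry of each sequence was counted (59.5 reads, 45.8 to 77.2, against 53), and that of miR169 and miR399 when only entries placed on a contig were (114 reads, 94.0 to 137, against 82, 65.2 to 102). The phosphate-linked miR399, miR2111 and miR827 had separate intervals under the full count.

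**Figure D1:**
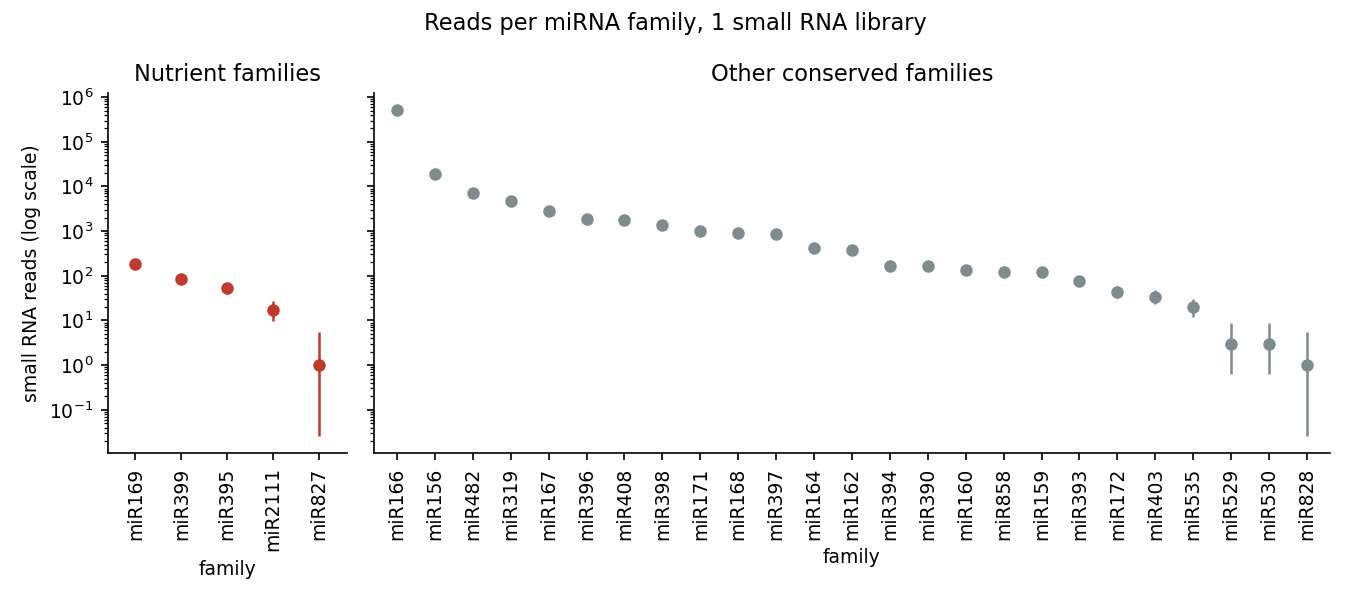
Small RNA reads per family on a log axis, with 5 nutrient families in the left panel and 25 other conserved families in the right; points are totals of 1 library and bars are exact Poisson intervals at 95%. The nutrient families run between 182 reads (miR169) and 1 read (miR827), and 13 of the other families lie above miR169.

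Of the 15 sequences, 6 had at least 10 reads, near the share of all matched sequences (47.8%). None was graded High in the authors' deposited table, a grade that 9.44% of matched sequences had, so nothing is read from its absence among 15. The median was 3 reads, against 9 for the matched sequences of other families, and 5 of the 15 sequences had 1 read.

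miR169 had only 2 sequences, and both began with U. The one named osa-MIR169o-p5 had 114 reads (94.0 to 137), or 62.6% of the family (exact binomial interval 55.2 to 69.7%). It was 20 nt long and differed from the registry sequence by T15C, counted from the 5′ end of the detected sequence. The other, cme-miR169r, had 68 reads (52.8 to 86.2), was 23 nt long and carried an additional base at each end with the change G22A. Its start lay 1 nt upstream when both were laid over each other, so the seeds agccaag and gagccaa differ by a shift of 1 base. Over the 20 shared positions they differed at 3, T1G, C15T and T20G, counted in osa-MIR169o-p5. Neither listed sequence was 21 nt long, whereas listed sequences of 21 nt held 63.1% of the reads of the other conserved families without miR166. An entry's count takes in isoforms on its arm, so the lengths of the single reads were not measured.

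miR395 was led by the sequence named mtr-miR395a, with 41 reads (29.4 to 55.6), 77.4% of the family (63.8 to 87.7%). It differs from the registry miRNA of that name by A1C. Its 5p partner vvi-MIR395m-p5 had 8 reads (3.45 to 15.8). gma-miR395d had 3 reads and aly-miR395c-3p had 1. These last sequences have the same letters over 20 bases, and both differ from mtr-miR395a at its last base, C21T. aly-miR395c-3p keeps the seed tgaagtg of mtr-miR395a, so that 42 of the 53 reads shared it, and gma-miR395d starts 1 base later with the seed gaagtgt.

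miR399 was the most varied member, with 7 sequences. ptc-miR399e had 55 reads (41.4 to 71.6), 63.2% of the family (52.2 to 73.3%), and vvi-miR399a, an exact registry match, had 24 reads (15.4 to 35.7). They differed at 3 positions, C1T, G13A and T21G, and none of these touches the seed gccaaag. With zma-miR399b-3p, listed at 1 read, that seed took 80 of the 87 reads. Of the remaining sequences, aly-miR399f-3p had 3 reads and ppe-miR399b had 1, and both start 2 bases upstream of vvi-miR399a. Laid over vvi-miR399a, each has 1 change within the shared 21 bases, A13T and C3T. The 5p sequences tcc-MIR399a-p5 and vvi-MIR399h-p5 had 2 reads and 1 read.

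miR827 and miR2111 were each a single 21-nt sequence with a 5′ U that matched the registry exactly. The miR2111 sequence was that of Arabidopsis lyrata and the miR827 sequence that of the grass Brachypodium distachyon, by the registry prefixes.

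**Figure D2:**
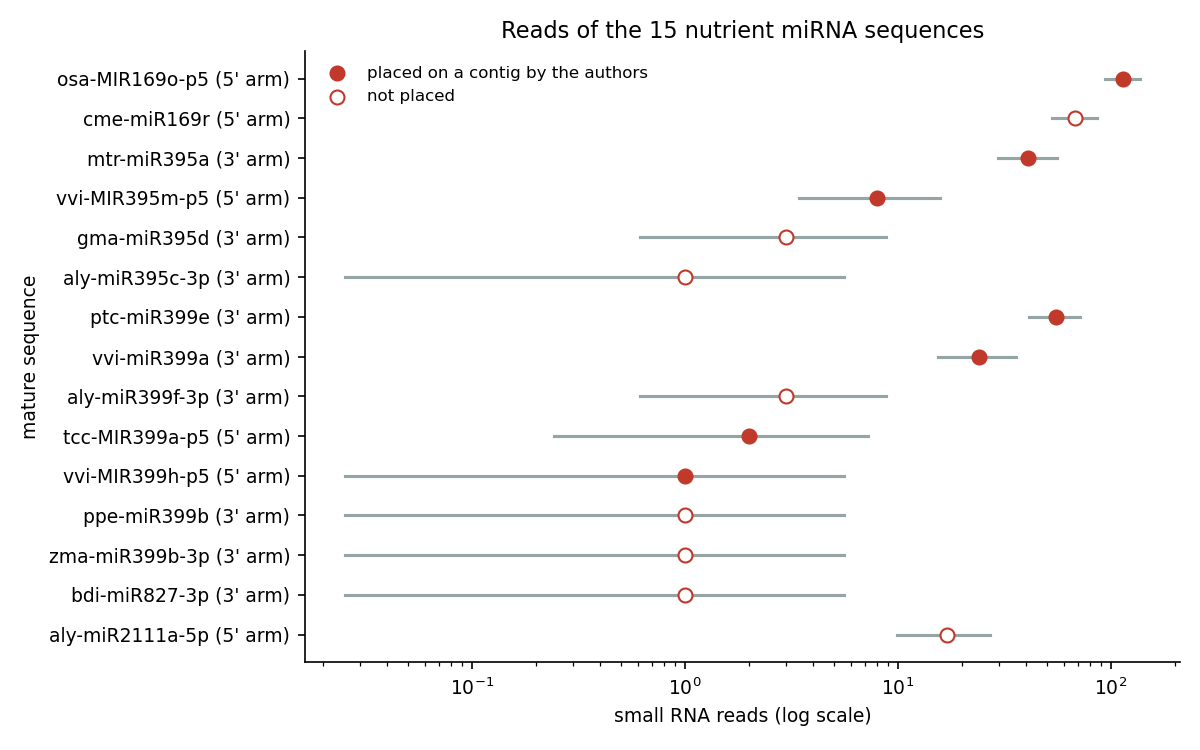
Reads of each of the 15 nutrient miRNA sequences on a log axis, with exact Poisson intervals at 95% as bars; filled points were placed on a contig by the authors and open points were not. Every family but miR2111 and miR827 has a filled point with at least 41 reads, and cme-miR169r, at 68 reads, is the highest open point.

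Among the members, miR395 and miR399 had leading sequences that began with C. Listed sequences with a 5′ C held 79.2% of miR395 reads (65.9 to 89.2%) and 63.2% of miR399 reads (52.2 to 73.3%), and neither miR169 nor miR2111 had one. In the other conserved families without miR166 they held 0.358% of 42864 reads (0.305 to 0.421%), and sequences with a 5′ U held 97.3%. Over all other matched families without miR166 the shares were 23.03% for C and 55.8% for U, so the contrast is with the conserved families. The shares weight the first base of each listed sequence by its count, isoforms included. In miR395 this was the C of mtr-miR395a and aly-miR395c-3p, the first base also known for miR395 in Arabidopsis. In miR399 it was the C of ptc-miR399e alone, and the remaining 3p sequences, with 29 reads, began with U. Counted by sequences instead of reads, a 5′ C was found in 3 of the 15 nutrient sequences (20%, 4.33 to 48.1%). In the other conserved families without miR166 it was found in 9 of 93 (9.68%, 4.52 to 17.6%), an overlapping interval. All these shares come from 1 library.

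**Figure D3:**
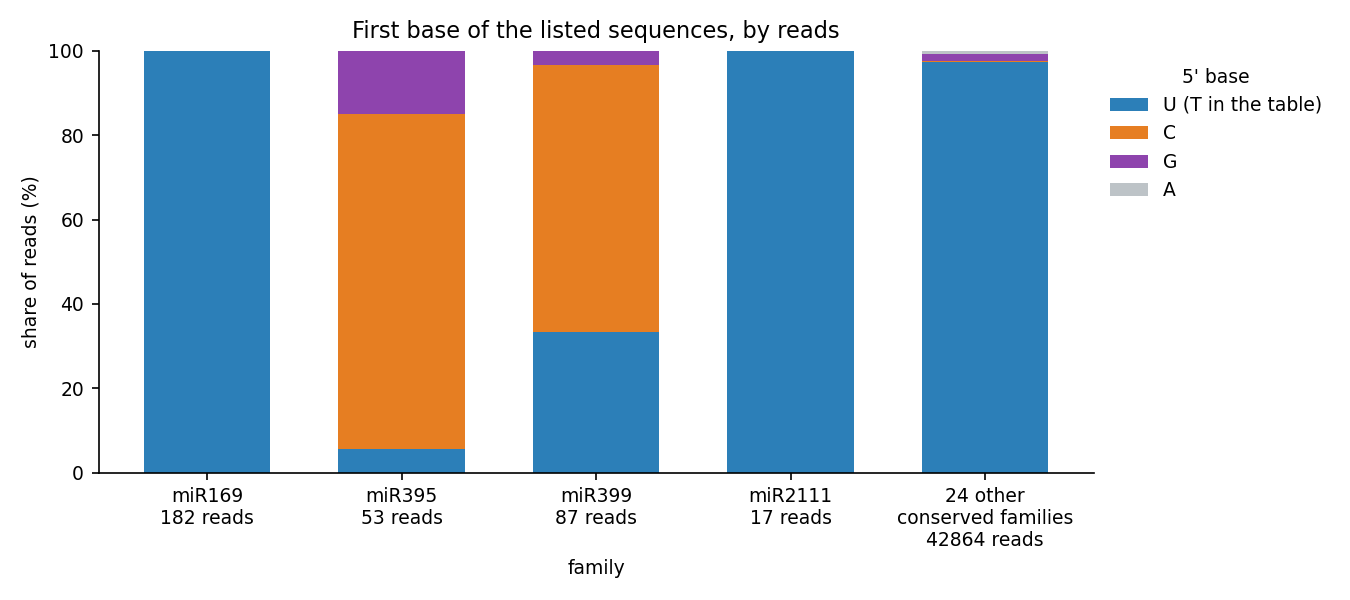
Share of reads (%) by 5′ base of the listed sequence for miR169, miR395, miR399 and miR2111 and, at the right, for 24 other conserved families without miR166; numbers below the bars are reads, and miR827 with 1 read is left out. C takes 79.2% of miR395 and 63.2% of miR399, against 0.358% at the right.

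Genome places were listed for 3 of the 5 families, miR169, miR395 and miR399, against 28.6% of all matched families and 17 of the 25 other conserved families. The places of the nutrient families came to 5 hairpins, and 7 of the 15 sequences, with 245 of the 340 reads (72.1%), lay on them. The hairpins of miR395 and miR399 are printed because both arms were sequenced; capitals mark the listed arms, and the labels name no genome build for the contigs.
miR395, contig_116139:1852-1953, plus strand: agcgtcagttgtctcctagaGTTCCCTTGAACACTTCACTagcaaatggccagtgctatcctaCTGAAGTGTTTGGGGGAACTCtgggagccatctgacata
miR399, contig_81705:256-346, minus strand: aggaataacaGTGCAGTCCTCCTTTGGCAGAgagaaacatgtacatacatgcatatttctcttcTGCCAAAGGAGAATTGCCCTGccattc
miR399, contig_167519:431-527, plus strand: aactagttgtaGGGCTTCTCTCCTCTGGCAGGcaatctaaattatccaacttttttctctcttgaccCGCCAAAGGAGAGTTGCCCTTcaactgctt
miR399, contig_194332:484-580, plus strand: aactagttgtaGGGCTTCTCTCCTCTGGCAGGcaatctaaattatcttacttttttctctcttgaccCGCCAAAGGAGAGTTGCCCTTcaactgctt

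In these hairpins the 3p arm, which holds the known miRNA of both families, had most reads. On contig_116139 it had 41 reads against 8 on the 5p arm, 83.7% (70.3 to 92.7%). On contig_81705 it had 24 against 1, 96% (79.6 to 99.9%). The main arm of 29 hairpins of other matched families with both arms listed held a median of 93.8% of the reads, with a range of 65.6 to 100%. For miR169, contig_70015:868-1043 on the plus strand held 114 reads on the 5p arm and no listed 3p sequence.

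The hairpins on contig_167519 and contig_194332 could not be told apart by their miRNAs. Over 97 bases they differ at 2, C47T and A48T, counted from the hairpin's first base, and both lie in the stretch between the arms. The authors divided the reads of ptc-miR399e into 28.5 and 26.5 between these contigs, and each was given 1 read of tcc-MIR399a-p5. Pooled, they had 55 reads on the 3p arm and 2 on the 5p arm, 96.5% (87.9 to 99.6%). Both were listed among hairpins that, per the file headers, may not fold, with a folding energy of -38.7 kcal/mol and a folding index of 0.9, the lowest among the 5. The index is the folding energy per base and GC content, and it was 1.1 for miR169 and 1.2 for miR395 and the miR399 hairpin on contig_81705. The median over 48 other matched hairpins was 1, with a range of 0.5 to 1.5.

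The arms of each of the 4 hairpins with both arms listed paired with a 3′ overhang of 2 nt on the 3p arm, the mark of Dicer cutting. Of all 17 matched hairpins in which both arms could be located and paired, these 4 included, 76.5% had it. Of the other 13, 9 had it. The arms on contig_167519 and contig_194332 are the same, so these do not count separately. The 5p sequences of the miR399 hairpins had no more than 2 reads each. On the 5p arm the overhang was also 2 nt in the miR399 hairpins and 1 nt in that of miR395, whose 5p sequence was 20 nt long. Pairing covered 19 of the 21 bases of either arm on contig_81705, and 17 of 21 bases of the 5p arm and 16 of 21 of the 3p arm on both contig_167519 and contig_194332. In the miR395 hairpin it covered 17 of 20 bases of the 5p arm and 18 of 21 of the 3p arm.

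The remaining 8 sequences, with 95 reads, were placed on no contig by the authors, so their listed precursors belong to other species. Comparison with the contig hairpins of the table gave a place for 2 of them. The miR395 sequences aly-miR395c-3p and gma-miR395d occur letter for letter in a hairpin that the table lists for a predicted candidate, PC-3p-42983_12, which was singled out after its values were seen. The hairpin is printed with the miR395 stretch in capitals.
contig_58136:251-374, minus strand: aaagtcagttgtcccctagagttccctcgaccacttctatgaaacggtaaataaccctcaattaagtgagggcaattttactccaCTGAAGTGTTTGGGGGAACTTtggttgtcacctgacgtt
candidate PC-3p-42983_12: cTGAAGTGtttgtgggaactt
The stretch is at bases 86 to 106 of the 124 listed. The candidate, with 12 reads, lies on the same bases and differs from its own contig by G13T, a position outside the seed. In 203 of the 370 candidate entries the listed sequence was found letter for letter in its own hairpin. The folding energy of this hairpin was -54 kcal/mol and its index 1, against -61.8 kcal/mol and 1.2 on contig_116139. Among the 107 matched sequences without a place, 3 occurred in a listed hairpin, and the other one belonged to miR166. With the candidate added, miR395 would have 65 reads (50.2 to 82.8), an interval that meets that of miR399.

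For the other unplaced members the nearest listed hairpin was farther. aly-miR399f-3p and ppe-miR399b each differed by 1 base from the hairpin on contig_81705, by A15T and C5T counted in the unplaced sequence. zma-miR399b-3p differed from it by 4 bases and cme-miR169r from contig_70015 by 6. The miR827 and miR2111 sequences had no stretch in the listed hairpins with fewer than 7 differences.

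Only miR395 had a listed cleavage site. Of the 5 families 1 had a target in the authors' deposited table, against 27.4% of all matched families, and none had a position of category 0 or 1, against 16.7%. Among the 25 other conserved families, 18 had a listed target and 14 had a position of category 0 or 1. The site lies on the assembled transcript Unigene1531, 2928 nt long, at 188 to 206, and is printed with its miRNA because its pairing is with one of the rare sequences.
site on Unigene1531: aagccccccaaacgcuuca
gma-miR395d, the listed miRNA: tGAAGTGTttgggggaactt
Targets are listed by assembly name alone, so whether it is a sulphate gene was not analysed here. The alignment held 17 base pairs, 1 G:U pair, 1 mismatch and 1 gap, with a score of 3 in the authors' deposited table, and position 197 lies opposite base 10 of the miRNA, where cleavage by a plant miRNA is known to fall.

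There were few reads at this site. Position 197 had 1 of the 1742 degradome reads on the transcript, 0.0574% (exact interval 0.00145 to 0.319%), and no other 5′ end was seen within the site. The authors' deposited table gave it category 4 and a p-value of 0.0527. Of the 203 positions with reads on this transcript, 181 had more reads and 22 had 1 read, with a median of 7. The highest was position 2796 with 71 reads, 4.08% of the total. The nearest positions lay 38 nt upstream and 84 nt downstream, each with 9 reads. The site was thus among the lowest of the transcript. Over all 69 listed positions of the degradome the median was 13 reads, and 5 positions, this one among them, had 1 read. The same 5 were the only positions of category 4, so that category and the single read are not separate evidence.

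**Figure D4:**
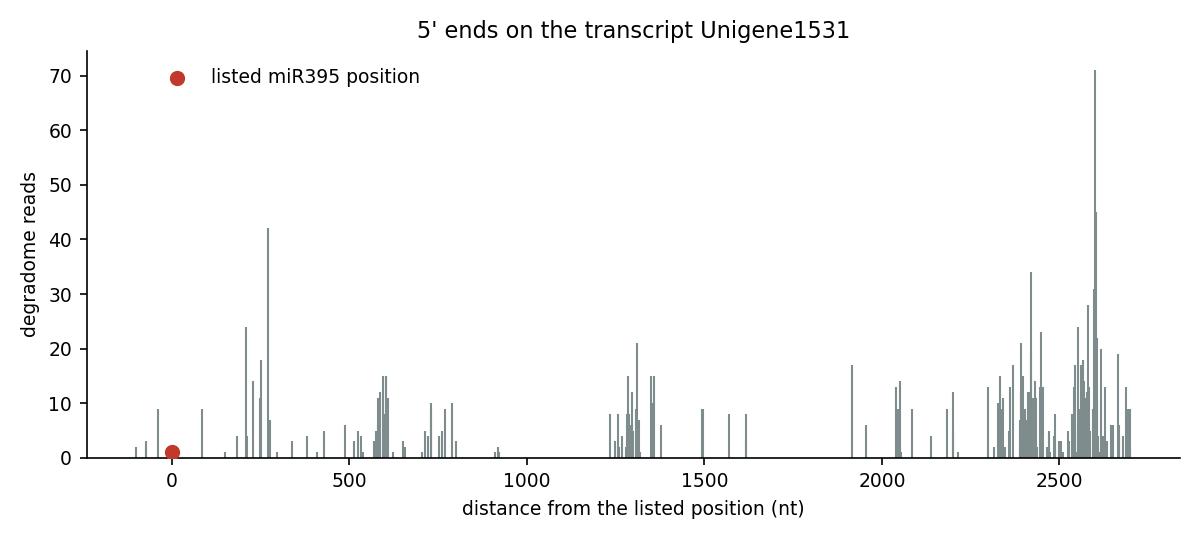
Degradome reads at each 5′ end on Unigene1531 by distance (nt) from the listed miR395 position, which is marked. The marked position has 1 read, and the highest, near the 3′ end, has 71.

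The listed miRNA of the site was also not the main miR395 sequence. In the same alignment mtr-miR395a, with 41 reads, would make 16 base pairs and 2 mismatches, because its last base differs, and aly-miR395c-3p would pair like gma-miR395d. The base opposite the 5′ C of the 21-nt sequences lies outside the site and was not compared. These sequences start 1 base upstream of gma-miR395d, so position 197 lies opposite base 10 of gma-miR395d but 1 base later in them.

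Over all matched families, listed targets were the more frequent among abundant ones, but most families with a listed target were conserved ones. Of the 18 other matched families with more reads than miR169, 10 had a listed target (55.6%), and of the 61 with no more reads, 12 had one (19.7%). This contrast mixes conserved and other families. All of the 10 are conserved families, as are miR394, miR160, miR858, miR159, miR393, miR172, miR530 and miR828 among the 12. Of the 25 other conserved families at any count, 18 had a listed target. The other conserved families without a listed target were miR167, miR398 and miR162 above miR169, and miR390, miR403, miR535 and miR529 below it. Listed targets were thus common among other conserved families on both sides of miR169, and a relation to reads among them was not tested. Of the 61 families, 7 had a position of category 0 or 1 in the authors' deposited table. miR394, with 170 small RNA reads, had 98 degradome reads at its best position, and miR393, with 77, had 356. miR828, which acts on MYB genes and had 1 small RNA read like miR827, had 1819. miR169 with 182 reads and miR399 with 87 had no listed target at all.

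Names that hold the same numbers without belonging to the families were left out. There were 6 entries of 5 predicted candidates, such as PC-5p-2111_271 and PC-5p-3828_169, in whose names the digits do not give a family. The degradome alignment of PC-5p-3828_169, on CL3294.Contig1 with 3 reads at position 2236, was therefore not counted. An entry of miR7534 with 1 read lists an apple MIR169 precursor among its registry matches, and it was not counted either because of its name.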

How the data were processed

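Per the labels' protocols, equal amounts of root, stem and leaf RNA were mixed for a TruSeq small RNA library. The deposited table gives raw expected counts: reads per entry, with isoform reads on the same arm included per the file headers, and divided by the authors among entries that share them (115 of 569 values are not whole). The folding index is a score deposited by the authors. The degradome columns have no header, and they were read from their values as position, reads, reads divided by matches, reads matching 1 place, and category, for which no definition was at hand. Reads were summed over the entries of a sequence and then over a family (pairs such as miR156 and miR157 merged). Counts have exact Poisson and shares exact (Clopper-Pearson) binomial intervals at 95%, after rounding to whole reads. Their coverage was tested only on counts simulated from the same models, without PCR copies or divided reads, so the test does not bear on those. Unplaced sequences were compared without gaps with every listed contig hairpin. Hairpins were refolded with RNAfold 2.7.2, and the rest used Python 3.11.15, SciPy 1.17.1 and matplotlib 3.10.9. Every family, every listed site and the families next in reads were named by rule, with every sequence of a family of up to 6; for miR399 all 7 are named, although the rule asked for 4. The families and lists were chosen with earlier results of these data known. Aligner and genome build: not given in the sources used here.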

Additional observations from a re-analysis of the deposited data

How the results depend on the processing

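Leaving the most abundant sequence out of the total multiplied all shares alike: miR169 then had 0.193% of the reads, miR399 0.0924%, miR395 0.0563%, miR2111 0.0181% and miR827 0.00106%, against 0.0300, 0.0143, 0.00872, 0.00280 and 0.000165% of all listed reads. With placed entries alone miR169 fell to 114 reads, since cme-miR169r has no place. With the largest entry of each sequence in place of the sum, miR399 had 59.5 reads, since its main sequence is divided between a pair of contigs. The listed targets fell to 0 at category 0 or 1 and to 0 at a p-value of at most 0.05. Most of the degradome list failed this p-value cut as well: 27 passed it, in a list of 108 alignments at 69 positions. In 36 other recalculations the value stayed within its counting interval, within 1.5 times for a place in the order, within 10% for a refolded energy, or the same for the site. Those with contig_58136 counted for miR395 were chosen after seeing the data. miR827 and miR2111 have no placed entry and miR827 no sequence of 10 reads, so these settings gave no value for them. No paired analysis was possible because there is 1 library of each kind. Depth limits the statements on miR827, on the sequences with 1 to 3 reads and on the miR395 site.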
